A study of Rattus norvegicus with 108 samples.

Results

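Mitochondrial ribosomal protein genes are the nuclear genes for the protein part of the mitoribosome, and here they are the 74 rows whose symbol is Mrpl or Mrps followed by a digit, out of 19127 genes in both deposited count tables. Of the 74, 44 carry a large subunit symbol (Mrpl) and 30 a small subunit symbol (Mrps). They were chosen by symbol alone, with no threshold on a measured value, though earlier results of these data were known. The rows spelled mrpl9, mrpl11 and mrpl24 in lower case, and Mrp63 and Ict1, encode mitoribosomal proteins too, and they are described with the other genes of the pathway.

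The mitoribosome sits in the mitochondrial matrix and makes the membrane subunits of the respiratory chain that mitochondrial DNA encodes. Its proteins are made in the cytosol and imported, so mitoribosomal, respiratory chain and mitochondrially encoded genes belong to one production line whose parts lie in separate genomes. Some members descend from bacterial ribosomal proteins and keep the bacterial number, and others have no bacterial counterpart and were added on the way to the mammalian particle. Neurons and glia depend on this line to different degrees.

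The data are droplet-based 3′ counts of unique molecular identifiers (UMIs) from the dorsal (dorDG) and ventral (venDG) dentate gyrus of male Long-Evans rats from Charles River. The labels give an age of 2 months. In the study that is the age at assignment to treatment, so tissue was taken after 6 further weeks. The FT animals received fluoxetine, a serotonin reuptake inhibitor, in the drinking water at 18 mg/kg of body weight per day for 6 weeks. The Sham animals received water over the same 6 weeks, and no animal carried a genetic change. Each replicate pooled tissue of several animals. Labels call the material nuclei, while the methods of the study describe suspensions of cells and of nuclei.

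After summing the reactions of each replicate, dorDG held 4 FT replicates (numbers 1, 2, 4 and 5) and 5 Sham replicates, and venDG held 5 of each. Together they held 3347 cells with 99 to 230 cells per dorDG replicate and 42 to 384 per venDG replicate. Replicate sums ran from 220162 to 1523537 UMIs, of which 499 to 4501 were UMIs of the 74 genes. In all, 43268 UMIs came from these genes, and 96.8% of cells had at least 1, with a median of 9 per cell. Only 9 cell barcodes occurred in more than 1 reaction. In a sum over all cells, a change in the makeup of cells and a change of level within a cell cannot be told apart.

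Mrpl21 had the highest mean level over the 19 replicate sums, at 1.41 ± 0.65 UMIs per 10000 (SD, n = 19). Mrps6 followed with 1.32 ± 0.36, Mrpl48 with 1.17 ± 0.19, Mrpl30 with 1.14 ± 0.37 and Mrpl33 with 1.08 ± 0.27 UMIs per 10000. Mrpl52, Mrps21, Mrpl17, Mrpl54 and Mrpl27 completed the 10 highest, down to 0.671 ± 0.198 UMIs per 10000 for Mrpl27. The 10 gave 33.7% of the members' UMIs, so no single gene carried the set. Neighbours in this order differed by less than their SD. The kit counts transcript ends, so these levels were not divided by transcript length. At the other end, 2 members had fewer than 10 UMIs in the whole series (Mrpl36.1 and Mrps10).

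Promoter windows show what the members share upstream of their start sites. RefSeq promoters of the rat assembly GRCr8 (250 bases before to 50 after the start) matched 57 of the 74 symbols. The letters CCGGAAG, the core bound by ETS factors such as GABPA, stood on either strand in 19 of the 57 (33.3%), against 8.75% of all 33469 promoters and 10.7% of those of protein-coding genes. The letters AAGATGGC, a YY1 core, stood in 15 of the 57 (26.3%), against 3.17% of all promoters and 3.67% of protein-coding ones. The letters CGCATGCG, the core of an NRF1 site, stood in 6 of the 57 (10.5%), against 1.66% and 2.11%. The GC box core GGGCGG stood in 28 of the 57 (49.1%), against 33.1% and 41.8%. The ETS and YY1 letters can overlap by AAG, and a match is a description of the sequence only.

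Promoters of 6 members held both the ETS and the YY1 letters (10.5% of the 57, against 0.502% of all promoters). Those of Mrps27, Mrpl48, Mrps18a and Mrps18b are shown because these members are described at length below. Capitals mark CCGGAAG and AAGATGGC or their reverse complements, and each run reads 5′ to 3′ on the strand of the gene.
Mrps27, GRCr8 chr2:32473954-32474253, plus strand: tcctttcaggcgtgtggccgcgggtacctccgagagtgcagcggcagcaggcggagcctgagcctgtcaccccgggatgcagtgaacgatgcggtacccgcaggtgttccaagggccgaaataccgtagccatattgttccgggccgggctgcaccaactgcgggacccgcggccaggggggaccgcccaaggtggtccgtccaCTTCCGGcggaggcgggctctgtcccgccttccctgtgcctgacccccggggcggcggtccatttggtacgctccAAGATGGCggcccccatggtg
Mrpl48, GRCr8 chr1:164351327-164351626, minus strand: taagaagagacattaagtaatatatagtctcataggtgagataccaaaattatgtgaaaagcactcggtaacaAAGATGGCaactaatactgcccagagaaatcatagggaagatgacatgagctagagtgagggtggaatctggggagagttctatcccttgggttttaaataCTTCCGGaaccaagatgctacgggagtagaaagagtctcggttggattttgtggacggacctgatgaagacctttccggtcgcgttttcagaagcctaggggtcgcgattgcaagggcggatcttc
Mrps18a, GRCr8 chr9:22367331-22367630, minus strand: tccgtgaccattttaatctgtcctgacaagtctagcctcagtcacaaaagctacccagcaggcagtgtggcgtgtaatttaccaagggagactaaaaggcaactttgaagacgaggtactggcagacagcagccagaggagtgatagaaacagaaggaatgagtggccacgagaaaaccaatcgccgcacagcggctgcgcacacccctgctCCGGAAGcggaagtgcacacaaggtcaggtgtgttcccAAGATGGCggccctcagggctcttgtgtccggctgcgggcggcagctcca
Mrps18b, GRCr8 chr20:2842756-2843055, plus strand: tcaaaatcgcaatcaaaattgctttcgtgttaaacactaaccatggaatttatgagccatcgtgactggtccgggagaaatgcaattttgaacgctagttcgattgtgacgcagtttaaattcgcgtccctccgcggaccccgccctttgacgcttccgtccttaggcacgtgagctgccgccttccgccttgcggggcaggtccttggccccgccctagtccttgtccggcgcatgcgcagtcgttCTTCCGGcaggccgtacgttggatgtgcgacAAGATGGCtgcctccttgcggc

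In GRCr8 only 1 pair of members were direct neighbours, Mrpl46 and Mrps11, which lie head to head with promoter windows that share 267 bases. The Mrpl46 window is shown for that reason, with its YY1 letters in capitals.
Mrpl46, GRCr8 chr1:142116981-142117280, minus strand: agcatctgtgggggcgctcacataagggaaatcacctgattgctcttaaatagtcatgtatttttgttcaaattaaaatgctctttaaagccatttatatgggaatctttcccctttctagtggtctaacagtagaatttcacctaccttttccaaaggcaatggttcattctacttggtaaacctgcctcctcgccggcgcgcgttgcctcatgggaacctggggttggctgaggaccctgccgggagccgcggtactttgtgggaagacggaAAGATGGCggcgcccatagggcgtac

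Cells fell into classes by their cytosolic ribosomal protein genes (120 genes, no member among them). A cell with less than 2% of its UMIs in those genes is called ribosome-poor here, and 1226 of the 3347 cells (36.6%) were. The mitoribosomal genes followed the cytosolic ones across this boundary: they took 0.189% ± 0.021 of UMIs in ribosome-poor cells and 0.329% ± 0.035 in other cells (SD, n = 19 replicates). The share was lower in the ribosome-poor cells of 19 of 19 replicates. The ratio of the other cells to the ribosome-poor cells of the same replicate ran from 1.48 to 2.17, with a median of 1.70. It was much the same in dorDG (1.75 ± 0.15, n = 9) and venDG (1.75 ± 0.22, n = 10).

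**Figure D1:**
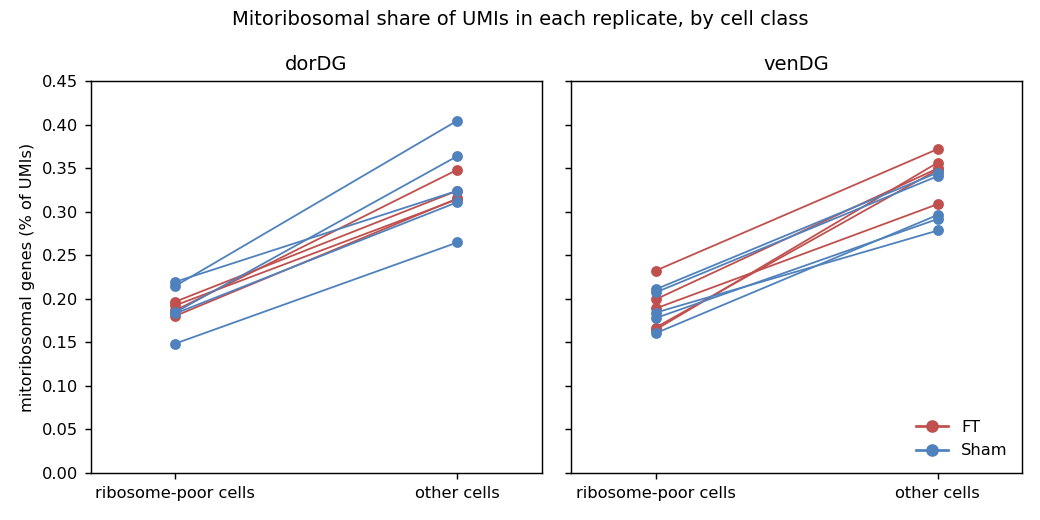
UMIs of the 74 mitoribosomal genes as a percentage of all UMIs (y axis) in ribosome-poor and other cells of each replicate, joined by a line, with FT replicates in red and Sham replicates in blue. Every line rises from the ribosome-poor cells (0.149% to 0.232%) to the other cells (0.265% to 0.405%).

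Ribosome-poor cells were shallower, with a median of 1807 UMIs against 4579 in other cells. Among cells of 1500 to 3000 UMIs (333 ribosome-poor and 379 other cells) the median over replicates was 0.206% in ribosome-poor and 0.340% in other cells, and the other cells were higher in 18 of 19 replicates. Reactions moved with the class as well. In the 8 replicates with 2 reactions, the reaction with the lower number held 4.08% to 15.5% ribosome-poor cells and the one with the higher number 78.3% to 95.9%. The mitoribosomal share was 0.262% to 0.345% in the former and 0.144% to 0.238% in the latter, higher in the former in 8 of 8 replicates. Within the lower-numbered reactions alone, the ribosome-poor cells held 0.131% to 0.246% and the other cells 0.272% to 0.356%. Within the higher-numbered reactions they held 0.134% to 0.221% and 0.153% to 0.372%, ranges that overlapped. There the other cells, at most 16 in a reaction, were higher in 8 of 8 replicates, with a small gap in dorDG Sham replicate 2 (0.153% against 0.151%).

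Gene by gene, edgeR's quasi-likelihood test compared the ribosome-poor with the other cells of the same replicate, with the replicate as a block. Calls needed a p of at most 0.2 after Benjamini-Hochberg adjustment over all genes tested, and a change of at least 0.32 on the log2 scale, as in the methods of the study. Genes needed a mean of 5 UMIs per sum, which 62 of the 74 members passed in dorDG and 65 in venDG. In dorDG 50 of the 62 fell in ribosome-poor cells, beside 38.4% of all genes tested, and 1 rose, beside 40.4%. In venDG 57 of the 65 fell, beside 40.9% of all genes tested, and 1 rose, beside 36.2%. The median fitted log2 fold change of the tested members was -1.32 in dorDG, against 0.08 over all genes, and -1.51 in venDG, against -0.06. Of the 62 members tested in both regions, 48 fell in both. The share of all genes that fell in both was not computed.

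These fitted values depend on the scale. On plain UMIs per 10000, the median log2 ratio of the members was -1.01 in dorDG and -1.03 in venDG. With library sizes that leave out ribosomal and mitochondrially encoded genes, the median of all genes moved to 0.34 in dorDG and 0.33 in venDG. That of the members moved to -1.06 and -1.14, with 44 and 46 falling and 3 rising in each region. Of all genes, 3287 of 9798 fell and 4689 rose in dorDG, and 3397 of 10404 fell and 5023 rose in venDG. The share of called genes of any kind that rose moved from 51.2% to 58.8% in dorDG and from 46.9% to 59.7% in venDG. With only the lower-numbered or single reaction of each replicate, 48 of 59 members fell in dorDG and 52 of 65 in venDG. Beside them, 3547 of 8824 and 3859 of 9476 genes of any kind fell.

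Mrpl30, a large subunit protein with a bacterial counterpart, had among the deepest falls in both regions. In dorDG it ran from 0 to 0.512 UMIs per 10000 in ribosome-poor cells (median 0.146) and from 1.27 to 1.94 in other cells (median 1.42, n = 9 each). The classes did not overlap, and the log2 fold change was -3.34 ± 0.25 (SE, edgeR adjusted p = 3.93e-13). In venDG the medians were 0.139 and 1.41 UMIs per 10000 (n = 10 each), and the log2 fold change was -3.65 ± 0.23 (SE, edgeR adjusted p = 2.37e-15). GRCr8 lists 9 Mrpl30 pseudogenes, more than for any other member, and reads shared with such copies could have been lost or split in counting.

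Mrps36.1, a second row of the Mrps36 symbol, was counted at medians of 0 in ribosome-poor and 0.207 UMIs per 10000 in other cells of dorDG. Its log2 fold change was -3.25 ± 0.58 in dorDG and -3.82 ± 0.47 in venDG. Mrps36 itself, whose product is now placed in the 2-oxoglutarate dehydrogenase complex, fell by 1.88 and 2.16 on the log2 scale. Mrpl23, at the exit of the peptide tunnel, had log2 fold changes of -2.56 ± 0.36 in dorDG and -3.09 ± 0.28 in venDG (SE). Mrpl50 and Mrps33, which have no bacterial counterpart, had -2.92 ± 0.49 and -2.57 ± 0.29 in dorDG. In venDG, Mrpl54 and Mrpl34 completed the deepest 5, at -2.74 ± 0.24 and -2.73 ± 0.30 (log2 fold change, SE). Each of these falls was seen in at least 8 replicates of its region.

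Some members were not called lower or went the other way. Mrps27, a pentatricopeptide repeat protein of the small subunit, ran from 0 to 0.794 UMIs per 10000 in ribosome-poor cells of venDG (median 0.281) and from 0.0221 to 0.373 in other cells (median 0.131, n = 10 each). Its log2 fold change of 1.02 ± 0.30 passed the test there (SE, edgeR adjusted p = 0.0038), though the classes overlapped and the ribosome-poor cells were lower in 2 of 10 replicates. In dorDG, Mrps27 had a log2 fold change of 0.45 ± 0.32 and was not called. Mrpl37, a large subunit protein without a bacterial counterpart, rose in dorDG, from a median of 0.216 UMIs per 10000 in other cells to 0.424 in ribosome-poor cells (log2 fold change 0.65 ± 0.28, edgeR adjusted p = 0.0385). In venDG its value was 0.12 ± 0.28 and it was not called. The dorDG call of Mrpl37 was lost with DESeq2 (0.41, adjusted p = 0.259), without FT replicate 2 (0.37, edgeR adjusted p = 0.278) and with only the lower-numbered or single reaction of each replicate (0.08, edgeR adjusted p = 0.878).

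Mrpl48, of the central protuberance of the large subunit, had medians of 1.38 UMIs per 10000 in ribosome-poor and 1.11 in other cells of dorDG, and 1.08 and 1.11 in venDG. Its fitted log2 fold change was -0.08 ± 0.19 in dorDG, not called, and -0.49 ± 0.17 in venDG, called lower although the ribosome-poor cells were lower in only 4 of 10 replicates. Mrpl21, Mrpl28, Mrps9 and Mrps22 were called lower in venDG, and Mrps5 in dorDG, with the same mismatch: their ribosome-poor cells were lower on plain UMIs per 10000 in no more than 5 replicates. With library sizes that leave out ribosomal and mitochondrially encoded genes, the calls of Mrpl21, Mrpl28, Mrpl48 and Mrps9 in venDG and of Mrps5 in dorDG were lost. Mrps15, Mrpl22 and Mrps22 were the other weakly falling calls of dorDG, at -0.51 ± 0.22, -0.53 ± 0.33 and -0.56 ± 0.37 (log2 fold change, SE), and they lost their calls with those library sizes too.

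**Figure D2:**
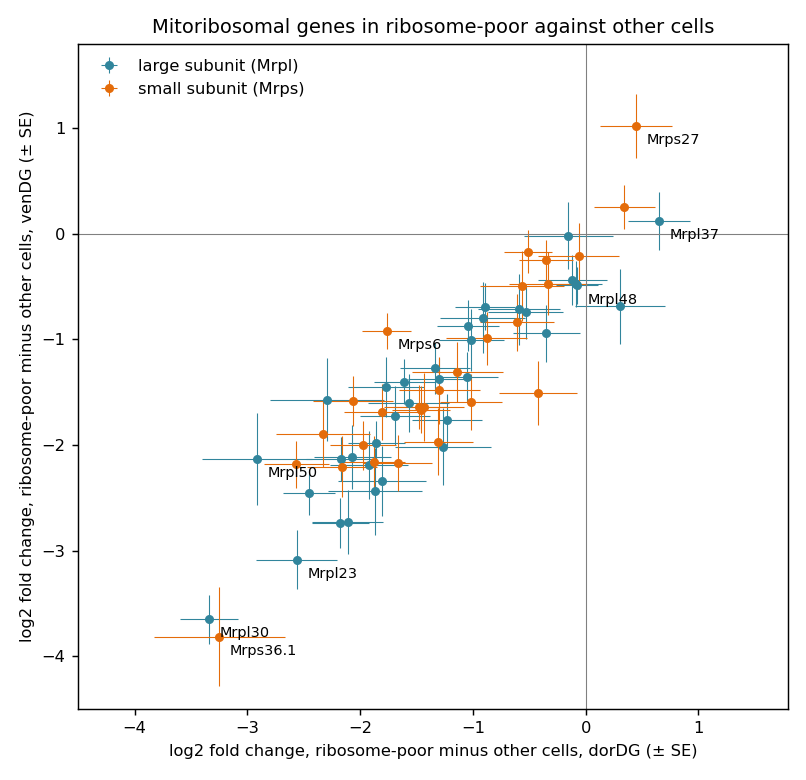
Fitted log2 fold changes of ribosome-poor minus other cells in dorDG (x axis) and venDG (y axis), with SE bars, for the 62 mitoribosomal genes tested in both regions, coloured by subunit symbol. Most points lie below 0 on both axes, from Mrpl30 and Mrps36.1 at the lower left to Mrps27 and Mrpl37 above 0.

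By subunit, the medians were close: -1.33 for the 35 tested Mrpl and -1.31 for the 27 tested Mrps rows in dorDG, and -1.43 and -1.58 in venDG (log2 fold change). Symbols with bacterial numbering had medians of -1.33 and -1.49 in dorDG and venDG, and the higher numbers -1.30 and -1.51. Lists by place in the particle stand beside 50 of 62 and 57 of 65 members that fell in dorDG and venDG, and beside 38.4% and 40.9% of all genes. They were small, and no difference from the members as a whole was tested. Of the central protuberance list (Mrpl18, Mrpl27, Mrpl38, Mrpl40, Mrpl46, Mrpl48, Mrpl52), 5 of 7 fell in dorDG and 6 of 7 in venDG. Mrpl27 fell by 2.17 and 2.13, and Mrpl38 was not called in either region. The exit tunnel list (Mrpl17, Mrpl22, Mrpl23, mrpl24, Mrpl45, Mrpl47) had 4 of 6 and 6 of 6 falls, with Mrpl45, which ties the particle to the inner membrane, at -1.69 ± 0.31 and -1.72 ± 0.28. Of the stalk that recruits translation factors (Mrpl10, mrpl11, Mrpl12), 1 of 2 tested fell in dorDG and 3 of 3 in venDG, and Mrpl12 had -1.23 ± 0.31 and -1.76 ± 0.25. The venDG call of Mrpl10 (-0.90 ± 0.37) was lost with library sizes that leave out ribosomal and mitochondrially encoded genes (-0.52, edgeR adjusted p = 0.219) and with only the lower-numbered or single reactions (-0.66, edgeR adjusted p = 0.233).

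The neighbours Mrpl46 and Mrps11 had like values in each region, and whether they were more alike than other pairs of members was not tested. In dorDG their log2 fold changes were -0.91 ± 0.38 and -0.88 ± 0.36, and in venDG -0.79 ± 0.34 and -0.99 ± 0.25 (SE), all called. Mrps18a, Mrps18b and Mrps18c are paralogues of 1 bacterial protein. Mrps18a fell by 1.67 and 2.17, and Mrps18c by 1.81 and 1.69, in dorDG and venDG. Mrps18b fell less, by 0.61 and 0.84, and its dorDG call was lost without Sham replicate 4 (-0.52, edgeR adjusted p = 0.203) and with library sizes that leave out ribosomal and mitochondrially encoded genes (-0.34, edgeR adjusted p = 0.356). The difference between paralogues was not tested. Mrps7, a protein of the small subunit head, fell by 1.46 and 1.67. Mrps6, a small subunit protein with a bacterial counterpart, fell by 1.76 and 0.92. Mrps30 had too few UMIs to be tested in either region.

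The other lists of the mitochondrial production line are given by the same counts, beside 38.4% of all genes called lower and 40.4% called higher in dorDG, and 40.9% and 36.2% in venDG. Of the oxidative phosphorylation genes, 71 of 76 tested fell in dorDG (median log2 fold change -2.29) and 74 of 77 fell in venDG (-2.14). Mitoribosomal proteins under other names fell in 5 of 10 cases in dorDG and 8 of 10 in venDG. Among them, Gadd45gip1, a protein of the large subunit, had -2.80 ± 0.38 and -2.53 ± 0.27 (log2 fold change, SE), and Ptcd3, a pentatricopeptide repeat protein of the small subunit like Mrps27, rose by 0.93 ± 0.30 in dorDG. Of the translation factors, 2 of 5 tested fell in dorDG and 3 of 6 in venDG, near the shares of all genes. The elongation factor Tufm fell by 1.52 and 1.31, and Oxa1l, which inserts the new chains in the membrane, by 0.93 and 1.14. Of the assembly factors 3 of 5 fell in dorDG, and 2 of 5 fell and 1 rose in venDG. Malsu1 fell by 2.05 and 1.09.

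Genes of mitochondrial transcription and RNA went both ways. Tfam, which packs mitochondrial DNA, fell by 2.53 in dorDG and 2.31 in venDG, and Lrpprc, which protects mitochondrial mRNA, rose by 0.92 and 0.94 (log2 fold change). Slirp, the partner of Lrpprc, fell by 1.31 and 1.69. Of the 9 tested mitochondrial aminoacyl-tRNA synthetases, 4 rose and 1 fell in each region, a share of risers near that of all genes. Lars2, Nars2 and Wars2 rose in both, by 1.64, 0.84 and 1.11 in dorDG and by 1.34, 1.23 and 1.28 in venDG, while Aars2 fell by 1.71 and 1.37. Among regulators, the coactivator Ppargc1a rose by 1.54 ± 0.36 and 1.84 ± 0.32 and Gabpa fell by 0.84 and 0.97. These lists were small, and no difference between lists was tested.

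**Figure D3:**
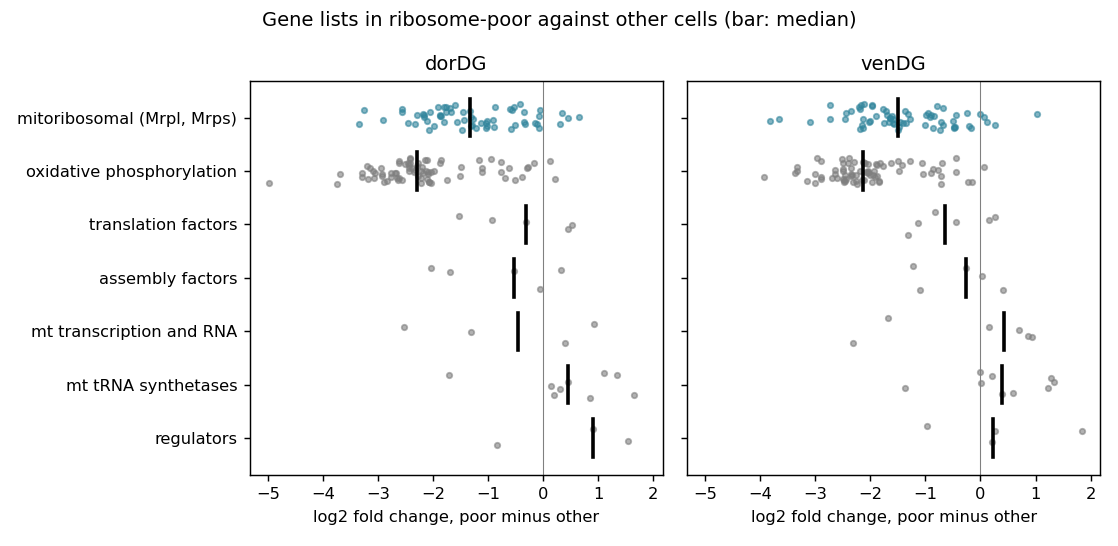
Fitted log2 fold changes of ribosome-poor minus other cells (x axis) for single genes (points) of each list (rows), with a bar at the median, in dorDG (left) and venDG (right). Mitoribosomal genes centre at -1.32 and -1.51, oxidative phosphorylation genes at -2.29 and -2.14, and mitochondrial tRNA synthetases at 0.45 and 0.39.

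Among the 12 labelled types of dorDG, the mitoribosomal share of UMIs was highest in cells labelled BergGlia and lowest in microglia. BergGlia had 0.451% ± 0.111 (SD, n = 4 replicates with at least 5 cells), Oligodend1 0.387% ± 0.041 (n = 9) and OPC 0.371% ± 0.065 (n = 7). AstroSub1 followed with 0.333% ± 0.063 (n = 8), Oligodend2 with 0.316% ± 0.042 (n = 7) and Endothelial with 0.291% ± 0.051 (n = 9). InhibNeuron had 0.289% ± 0.083 (n = 6), Mossy 0.243% ± 0.030 (n = 7), ExcitNeuron 0.237% ± 0.091 (n = 4) and Granule 0.232% ± 0.067 (n = 9). Microglia2 had 0.213% ± 0.027 and Microglia1 0.192% ± 0.019 (n = 9 each). No 2 neighbours in this order differed by more than the larger of their SDs. Oligodend1 ran from 0.344% to 0.458% and Microglia1 from 0.155% to 0.219%, so those did not overlap. The types were clustered on these genes among others, so no test was made.

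Labels held unevenly against markers. Oligodendrocyte, astrocyte, microglia, OPC, endothelial and excitatory neuron markers were highest or second highest in the types of that name. In cells labelled Mossy, 3 of 4 listed markers (Calb2, Csf2rb, Drd2), each with UMIs in other dorDG cells, had no UMI and mural markers (Rgs5, Pdgfrb, Vtn) summed to 15.6 UMIs per 10000. In cells labelled InhibNeuron, Gad1 and Gad2 summed to 0.513 UMIs per 10000 with Slc32a1 at 0, lower than in 2 other types. Granule markers summed to 1.17 UMIs per 10000 in cells labelled Granule, lower than in 3 other types, beside 388 for Hbb and Alas2. Oligodendrocyte markers were found in every type, at 36.6 UMIs per 10000 or more. Names are used below only as labels.

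**Figure D4:**
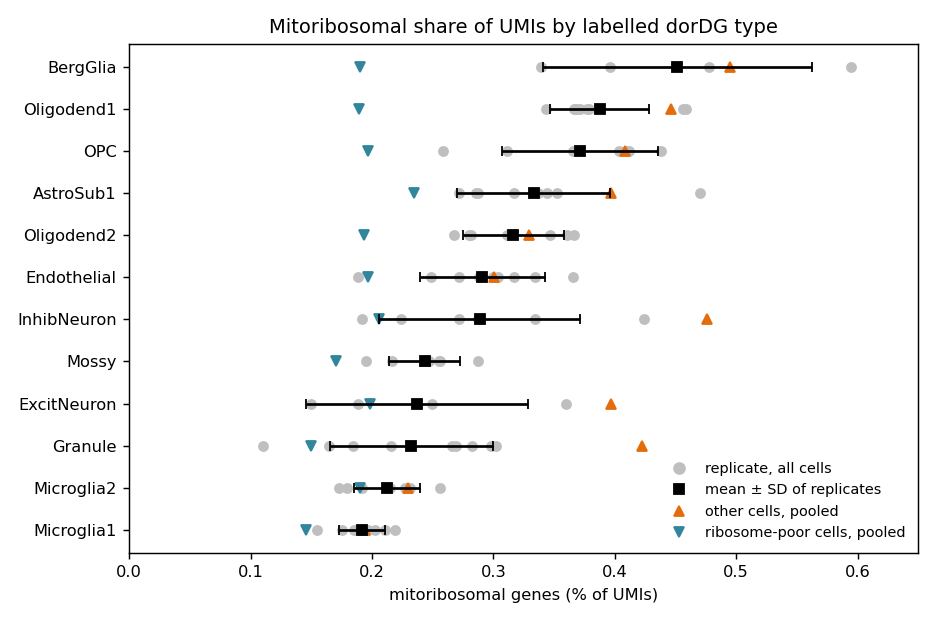
UMIs of the 74 mitoribosomal genes as a percentage of all UMIs (x axis) by labelled dorDG type (rows). Grey points are replicates with at least 5 cells, squares with bars their mean ± SD, and triangles the pooled other (up) and ribosome-poor (down) cells; shares of ribosome-poor cells stay between 0.145% and 0.235% in every type.

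The class of a cell was marked within types too. Pooled over replicates, ribosome-poor cells had the lower share in 12 of 12 types. Some ribosome-poor pools were small: Mossy (8 cells, 41 UMIs of members), BergGlia (9 cells, 22 UMIs) and Microglia1 (10 cells, 36 UMIs). No replicate of those types held at least 5 ribosome-poor cells, and only 1 did in Endothelial and in Oligodend2. The gap was wide in cells labelled Granule (0.150% against 0.422%) and InhibNeuron (0.206% against 0.476%), where 79.8% and 79.6% of cells were ribosome-poor. It was narrow in Microglia1 (0.145% against 0.194%) and Microglia2 (0.190% against 0.229%). In other cells alone, the mean share was 0.496% ± 0.090 in BergGlia (n = 3), 0.490% ± 0.140 in InhibNeuron (n = 2), 0.445% ± 0.053 in Oligodend1 (n = 7) and 0.195% ± 0.021 in Microglia1 (n = 8), and Granule had 0.477% in its 1 replicate with at least 5 such cells. Of the neighbours in that order, AstroSub1 and Oligodend2, Mossy and Microglia2, and Microglia2 and Microglia1 differed by more than the larger SD. Microglia2 had the highest cytosolic ribosomal protein share of all types (7.77%), so the cytosolic and mitochondrial shares did not rank the types alike.

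Single members differed in where they were highest. Mrpl48 was at 2.22 ± 0.64 UMIs per 10000 in Oligodend1 (n = 9) and 0.44 ± 0.26 in Microglia1 (n = 9). Mrps6 had 2.15 ± 0.54 in Microglia1, 2.11 ± 0.83 in Oligodend2 and 1.87 ± 0.55 in AstroSub1, and 0.43 ± 0.32 in ExcitNeuron. Mrpl30 was at 1.88 ± 0.71 in Endothelial and 1.63 ± 0.33 in cells labelled Mossy, against 0.32 ± 0.28 in ExcitNeuron. Mrpl21 had 2.28 ± 0.58 in ExcitNeuron (n = 4) and 0.98 ± 0.73 in Oligodend2 (n = 7). Each gap between the high and the low type exceeded the SDs given. BergGlia rests on so few UMIs that its values for single members (6 UMIs of Mrpl15, 7 of Mrps18a) were not ranked. All these levels are over all cells of a type. Ribosome-poor cells made up 80.0% of ExcitNeuron, 62.7% of AstroSub1 and 50.9% of Oligodend1. They made up 12.6% of Oligodend2, 11.1% of Mossy, 9.35% of Microglia1 and 7.78% of Endothelial. The part of the class in the gaps between types was not tested.

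Whether fluoxetine moved the members was asked first on sums of all cells. The share of UMIs in dorDG was 0.290%, 0.285%, 0.332% and 0.313% in FT replicates 1, 2, 4 and 5, and 0.277%, 0.229%, 0.222%, 0.355% and 0.307% in Sham replicates 1 to 5. The groups overlapped, with means of 0.305% ± 0.022 and 0.278% ± 0.055 (SD). In venDG the share was 0.310%, 0.289%, 0.295%, 0.324% and 0.345% in FT and 0.299%, 0.254%, 0.227%, 0.320% and 0.265% in Sham replicates. Those groups overlapped too, with means of 0.313% ± 0.022 and 0.273% ± 0.037. Ribosome-poor cells made up 14.5% to 42.1% of cells in FT and 31.9% to 72.0% in Sham replicates of dorDG, and 16.9% to 50.3% and 18.9% to 61.9% in venDG. Their part in the differences between all cells was not tested.

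In other cells alone the dorDG means were 0.325% ± 0.016 in FT and 0.334% ± 0.053 in Sham replicates, and in venDG 0.347% ± 0.023 and 0.310% ± 0.030. In ribosome-poor cells they were 0.189% ± 0.007 and 0.190% ± 0.029 in dorDG and 0.190% ± 0.028 and 0.188% ± 0.021 in venDG. All of these pairs of groups overlapped, though in venDG other cells 4 of 5 FT replicates lay above the highest Sham replicate.

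Of 70 members tested in all dorDG cells, edgeR called none between FT and Sham, beside 0.744% of all genes tested. At an unadjusted p under 0.05 there were 4 members, beside 17% of all genes tested. DESeq2 called 3 of the 70 (Mrpl33 and Mrpl34 higher, Mrpl21 lower), beside 10.7% of all genes. With the study's floor of 0.5 UMIs per 10000, edgeR called those 3 genes of the 19 members left, beside 28.6% of all genes. Without Sham replicate 2 it called 6 members, beside 2477 of 12420 genes in all, and without Sham replicate 4 it called 2, beside 957 of 12391. The median log2 fold change of the members was 0.35, against -0.03 over all genes. Of the 70, 57 were above 0, beside 5928 of 12358 genes of any kind. In other cells alone the median of the members was -0.03, against -0.002 over all genes, and 33 of 68 were above 0.

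Mrpl33, a large subunit protein with a bacterial counterpart, and Mrpl27 were the 2 of 70 members whose dorDG groups did not overlap, beside 5.61% of all genes tested. Mrpl34 above and Mrps33, Mrpl2, Mrps11 and Mrps2 below are named for these comparisons after their values were seen. Mrpl33 had 1.44, 1.19, 1.13 and 1.06 UMIs per 10000 in FT replicates 1, 2, 4 and 5 and 0.922, 0.657, 0.469, 0.986 and 0.999 in Sham replicates 1 to 5. Its log2 fold change was 0.71 ± 0.25 (SE, edgeR adjusted p = 0.245). In other cells it was 0.15 ± 0.21. Mrpl27, which lies near the catalytic centre, had 0.658, 0.644, 0.655 and 0.788 in FT and 0.524, 0.587, 0.285, 0.625 and 0.611 UMIs per 10000 in Sham replicates. Its log2 fold change was 0.50 ± 0.26 (SE, edgeR adjusted p = 0.326), and 0.02 ± 0.20 in other cells.

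Mrpl21 went the other way, and its SD over replicates was the largest of the 10 most abundant members. It had 0.336, 1.08, 1.78 and 0.565 UMIs per 10000 in the FT and 1.71, 1.14, 2.73, 1.86 and 2.29 in the Sham replicates of dorDG. The groups overlapped, and the log2 fold change was -0.87 ± 0.37 (SE, edgeR adjusted p = 0.273). In other cells it was -1.16 ± 0.38 (SE, edgeR adjusted p = 0.999). In venDG the value was -0.42 ± 0.29 with adjusted p = 0.901 from edgeR. It was below 0 in each of the 7 dorDG types in which Mrpl21 was tested, from -0.07 ± 0.65 in Granule to -1.41 ± 0.60 in Oligodend2, with none called; those types come from the same replicates. Mrps7 had 0.63 ± 0.06 UMIs per 10000 in FT and 0.58 ± 0.19 in Sham replicates of dorDG and differed by less than that spread (log2 fold change 0.24 ± 0.27).

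In all venDG cells edgeR called none of 71 members, beside 0% of all genes tested. An unadjusted p under 0.05 was reached by 9, beside 4.97% of all genes tested. DESeq2 called no member, beside 2 of 12754 genes of any kind. The median log2 fold change was 0.23, against 0.01 over all genes, and 58 of 71 were above 0. Mrps33 was the 1 member whose groups did not overlap, beside 0.714% of all genes. It had 0.677, 0.724, 0.794, 0.599 and 0.730 UMIs per 10000 in FT replicates and 0.5, 0.428, 0.273, 0.562 and 0.251 in Sham replicates. Its log2 fold change was 0.78 ± 0.23 (SE, edgeR adjusted p = 0.901). Mrpl27 had 0.791, 0.963, 0.860, 0.871 and 1.07 in FT and 0.609, 0.442, 0.454, 0.854 and 0.466 UMIs per 10000 in Sham replicates, which overlapped through Sham replicate 4 (log2 fold change 0.70 ± 0.23).

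**Figure D5:**
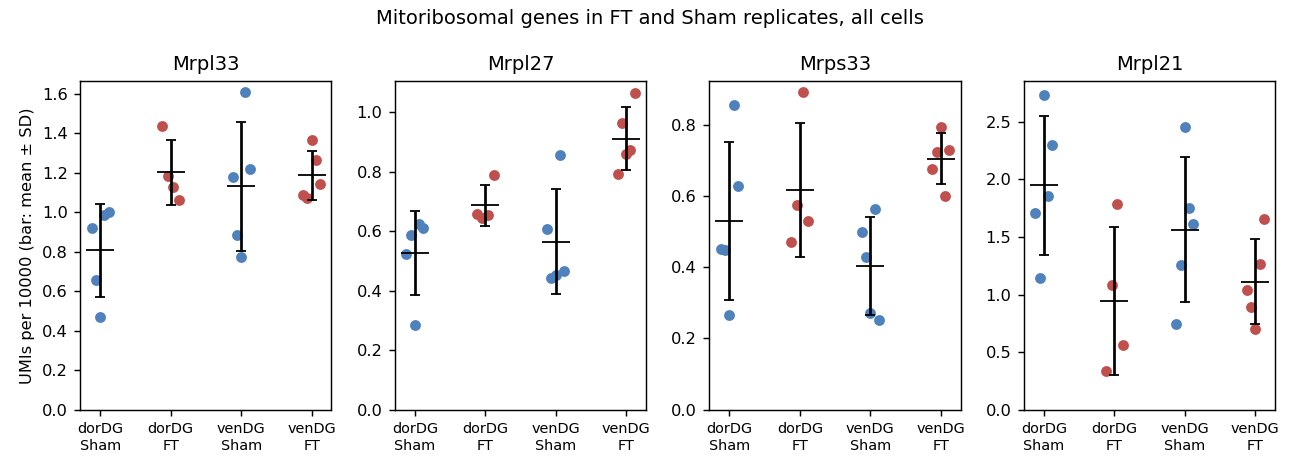
UMIs per 10000 (y axis, from 0) of Mrpl33, Mrpl27, Mrps33 and Mrpl21 in each Sham (blue) and FT (red) replicate of dorDG and venDG, with mean ± SD. Mrpl33 and Mrpl27 separate the groups in dorDG and Mrps33 does in venDG, and none of the 4 genes was called by edgeR with a mean of 5 UMIs as the filter and every replicate in the fit.

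Within classes no member was called. In other cells edgeR called 0 of 68 members in dorDG and 0 of 70 in venDG, beside 0% of all genes in both. At an unadjusted p under 0.05 there were 1 and 5 members, beside 3.01% and 4.71% of all genes. DESeq2 called no member, beside 0 of 10538 genes of any kind in dorDG and 4 of 11354 in venDG. Groups did not overlap for 0 of 68 members in dorDG, beside 1.02% of all genes, and for 3 of 70 in venDG (Mrps33, Mrpl2 and Mrpl10), beside 0.687%. In dorDG, leaving out FT replicate 4 gave 1 call of a member, lower in FT, the only call among 10497 genes tested. In ribosome-poor cells edgeR called 0 of 27 members in dorDG, beside 0.225% of all genes, and 0 of 29 in venDG, beside 0%. Unadjusted p under 0.05 was reached by 2 of 27 and 1 of 29 members, beside 7.49% and 4.79% of all genes. DESeq2 called no member, beside 57 of 7566 genes of any kind in dorDG and 0 of 7688 in venDG.

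Within labelled dorDG types, 9 types had at least 3 replicates per group, and 83 tests of members were possible over them, from 1 member each in Granule and Microglia2 to 21 in Oligodend1. None was called by edgeR, beside 1.18% of all tests, nor by DESeq2, beside 179 of 20182 tests in all. An unadjusted p under 0.05 was found in 6 of the 83, beside 6.56% of all tests. Without FT replicate 2 there were 3 calls of members, beside 558 of 19623 tests in all, and without Sham replicate 4 there was 1, beside 366 of 20654.

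Between regions no member was called. With treatment as a term and no replicate block, edgeR called 0 of 71 members between dorDG and venDG, beside 0.207% of all genes. DESeq2 called none, beside 66 of 12585 genes of any kind. At an unadjusted p under 0.05 there were 2, beside 6.39% of all genes: Mrps11 (0.234 ± 0.081 UMIs per 10000 in dorDG, n = 9, and 0.348 ± 0.101 in venDG, n = 10) and Mrps2. In other cells edgeR called 0 of 69, beside 0% of all genes, with 2 at an unadjusted p under 0.05, beside 4.76%. The interaction of region and treatment gave 0 of 71 calls, beside 0% of all genes, and 1 member at an unadjusted p under 0.05, beside 7.37%. That member was Mrpl30, with a difference of 0.93 ± 0.42 between the log2 fold changes of the regions (dorDG minus venDG, SE).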

How the data were processed

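The authors deposited whole-number UMI counts in 1 table of genes by cells for dorDG and 1 for venDG, made with Cell Ranger 2.1.0 per the labels (the submitters' processing notes also list Seurat 3 and the rat build rn5), and a dorDG table with the labelled types, from which only the type, the UMI count and, as a check, the replicate number were used. Cells were mapped to replicates through the reaction names in the labels, and 27 reactions (108 libraries) were summed to 19 replicates. The dorDG table numbers the replicates otherwise (replicates 1 to 5 of the labels are 4, 5, 1, 2 and 3 there), but puts the same reactions together and pairs the same FT and Sham replicates, so no sum changes. How doublets were treated is not given in the sources used here, and no doublet caller was run. The 170 venDG columns with a second suffix, which the labels do not explain, were left out. Replicate pairs of a group differed by 2.97 to 17.1 times the sampling noise (chi-square per degree of freedom), so none was a duplicate. Sums were tested across all genes with edgeR 4.0.16 (quasi-likelihood, TMM) in R 4.3.3, and with DESeq2 1.42.0 as an alternative; the code was checked on simulated counts. Named genes are the called members (the 5 highest and 5 lowest where over 10), the 10 most abundant and a fixed list (Mrpl27, Mrps7, Mrps18a, Mrps18b, Mrps18c, Mrps30, Mrps36, Mrpl12, Mrpl10, mrpl11, Mrpl45). The members and lists were chosen with earlier results of these data known. P-values of the treatment and region fits measure the spread between replicates of pooled animals. Those of ribosome-poor against other cells measure how the difference within a replicate varies from replicate to replicate.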

Additional observations from a re-analysis of the deposited data

How the results depend on the processing

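Of 250 alternative values of the counts and shares, 241 stayed and 9 moved. A count stayed if it equalled the main count or lay within a set fold range of it. A share difference stayed if it changed by less than the SD between replicates. Counts were not scaled to the number of members tested, which the floor of 0.5 UMIs per 10000 lowers. In all dorDG cells, 3 members were called between FT and Sham with DESeq2 and 3 with the floor of 0.5 UMIs per 10000, and leaving out 1 replicate gave 0 to 6. That range was 0 to 1 in dorDG other cells and 0 to 3 over dorDG types. For ribosome-poor against other cells the floor left 12 of 15 members called in dorDG and 14 of 16 in venDG, all lower. Beside them, 1760 of 4384 and 1764 of 4354 genes of any kind were called lower, and 1986 and 1856 higher. With the first reactions only, chosen after seeing the data, 48 members were called in dorDG, all lower. In venDG 53 were called, 52 of them lower. Genes of any kind called lower at this setting numbered 3547 of 8824 in dorDG and 3859 of 9476 in venDG. In dorDG, the fitted class difference of Mrpl21, not called, turned from -0.12 to 0.076 with no replicate block, to 0.14 with library sizes that leave out ribosomal and mitochondrially encoded genes, and lay between -0.573 (without FT replicate 2, where it was called lower) and 0.065 (without Sham replicate 2) when 1 replicate was left out; it was called lower with DESeq2 (-0.60) and with the first reactions only (-0.48). That of Mrpl48 turned to 0.19 with those library sizes. The cause of these changes was not tested. The number of genes of any kind called between FT and Sham in all dorDG cells moved from 92 to 5 with a replicate block, 1322 with DESeq2, 1221 with the floor, 207 with no filter, 0 at an adjusted p of at most 0.05 and 1 with the study's written cell filter, and that between regions from 26 to 42 with a replicate block and 66 with DESeq2. In venDG, Mrpl21 (-0.06), Mrpl28 (-0.10), Mrpl48 (-0.09), Mrps9 (-0.08) and Mrpl10 (-0.52) lost their calls with the same library sizes. With no replicate block, 53 members were called in dorDG (51 lower) and 56 in venDG (55 lower) between the classes. Of all genes, 3775 of 9798 in dorDG and 4174 of 10404 in venDG were called lower in those fits. No source used here says what a shared replicate number marks in the droplet libraries, though replicates 1 and 2 have 2 reactions in every group. Deviations of same-numbered FT and Sham replicates correlated at -0.22 to 0.36, and those of same-numbered dorDG and venDG replicates at 0.096 to 0.561, all above 0. The study took both regions from the brains of each treatment group, so same-numbered sums of the regions may share animals. The main fits of treatment and region did not pair samples by number, and they treat the sums of both regions as independent. A replicate block gave 0 calls of members in each comparison of FT with Sham and of regions. Members with few UMIs limit all comparisons, since 12 of 74 in dorDG and 9 in venDG were not tested between classes.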

Other observations

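Between FT and Sham in all dorDG cells, genes of the respiratory chain had mostly positive values. Of 77 oxidative phosphorylation genes tested, 74 had a log2 fold change above 0 (median 0.59), beside 5928 of 12358 genes of any kind. Of the 77, 35 had an unadjusted p under 0.05, beside 17% of all genes tested, and 1 was called by edgeR, beside 0.744%. In other cells alone the median was 0.12 and none was called or had an unadjusted p under 0.05. The 105 tested cytosolic ribosomal protein genes, which set the classes, were all above 0 in all dorDG cells (median 0.64), and 69 of 104 were in other cells (median 0.04). Mitochondrial tRNA synthetases had a median of -0.30 in all dorDG cells and -0.07 in other cells.

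Among the tRNA synthetases, Aars2 stood out by its level, and is named after its values were seen. Its median was 4.13 UMIs per 10000 in other cells of dorDG and 3.90 in venDG, above every member, against 1.53 and 2.02 in ribosome-poor cells.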
